A study of Mus musculus with 4 samples.

Results

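Oocytes cultured under maturation conditions with 20 μM tubastatin A (TubA) were compared, gene by gene, with oocytes cultured with 10 μM TubA. These are 2 of the 4 samples of the study, and all 21957 genes of the deposited table enter the comparison. The GV sample holds untreated oocytes at the germinal vesicle stage, collected at 0 h. The MII sample holds untreated oocytes cultured for 12 h and taken at metaphase II, chosen because they had extruded a polar body; its label calls them embryos. The TubA-10 and TubA-20 samples hold oocytes cultured for 12 h with 10 or 20 μM of the compound. Donors of all oocytes were 6- to 8-week-old B6D2F1 (C57BL/6 x DBA) females primed with PMSG, cumulus cells had been stripped off, and the culture medium was M16. Each library came from 100 pooled oocytes by the methods, whereas the series title speaks of single cells, and how many oocytes a library holds could not be settled from the table. There was 1 library for each condition, so no difference below has a replicate check or a p-value. The meiotic stage that the treated oocytes had reached when they were lysed is not given in their labels, and the study describes an arrest of maturation before metaphase II at the higher dose. Dose and stage therefore cannot be told apart.

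The doses follow the sample titles and the column names of the table. The treatment field of the same labels disagrees with them: it gives 20 μM for the sample titled 10 μM and 11 μM for the sample titled 20 μM. Every direction below therefore belongs to the libraries labelled TubA-10 and TubA-20 by title.

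TubA is a hydroxamate that blocks HDAC6, a largely cytoplasmic deacetylase whose best known substrate is α-tubulin. A fully grown mouse oocyte is transcriptionally silent, so its transcripts are a stored maternal pool. During maturation this pool is remodelled: many stored transcripts lose their poly(A) tail and are degraded, while others gain a longer tail and are translated. A cytoplasmic polyadenylation element (CPE) in the 3′ untranslated region (UTR), bound by CPEB1, lies near the poly(A) signal of many transcripts of the second kind. The libraries here were enriched for mRNA with oligo(dT), so the amount of a transcript and the length of its tail cannot be told apart. Values are FPKM, numbers of fragments scaled by transcript length and by the size of the library, so they are shares of a library and not amounts per oocyte. A gene can rank higher in TubA-20 because other transcripts are fewer, and the libraries cannot separate this from more RNA of that gene. The difference is given as the log2 ratio of FPKM + 1 in TubA-20 over TubA-10, called the dose step here. A negative step means a lower level at 20 μM.

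Transcript ends of genes with large steps are shown first to illustrate the letters that are counted further down. The genes were picked for holding a match or for lacking one, so the contrast between the lines is fixed by that choice. Each line gives 30 bases near the 3′ end of the principal transcript in the GENCODE annotation of GRCm38, read 5′ to 3′ on the transcript strand. The genes in the opening lines are those among the 15 largest positive steps with the letters TTTTAT or TTTTAAT, the usual form of a CPE, within the last 100 bases, and the capitals mark these letters.
Hamp: ccttgaaataaagacgaTTTTATtttcaaa
Pan3: atagcagtattTTTTAATaaagaattgcag
Gng5: aaggtttaactaTTTTATatacactggctg
Gtsf2: atcttaacatgcTTTTATttaaataaagaa
These stretches lie at chr7:30942368-30942397, minus strand (Hamp), chr5:147548460-147548489, plus strand (Pan3), chr3:146505491-146505520, plus strand (Gng5) and chr15:103438977-103439006, minus strand (Gtsf2), all in the last exon. The next lines come from the 15 largest negative steps: 5 of the 6 genes with neither form of the CPE in the 3′ UTR and a poly(A) signal, AATAAA or ATTAAA, within the last 50 bases. Their capitals mark the poly(A) signal.
Chchd2: tgagttaaaaaaAATAAAttggttattctg
Psmb7: tcaattaaaataAATAAAtaaaaagacaaa
Hint1: aattctgtgcctAATAAAagacattgttgc
Pdcd2: aataaaaacttaAATAAAaactaaaaactt
Gbx2: agtcttgtgaatAATAAAaaaaaaggcaag
They lie at chr5:129881161-129881190, minus strand (Chchd2), chr2:38588043-38588072, minus strand (Psmb7), chr11:54870462-54870491, plus strand (Hint1), chr17:15521576-15521605, minus strand (Pdcd2) and chr1:89927963-89927992, minus strand (Gbx2). Of the 15 largest positive steps, 7 genes held a CPE match somewhere in the 3′ UTR and 4 held it in the last 100 bases. Of the 15 largest negative steps, 2 held a match (Cdk1 and Cox17) and 0 held it in the last 100 bases. Matches anywhere in the 3′ UTR were thus no more frequent among the 15 largest positive steps than in general: of protein-coding genes with a mean of at least 5 FPKM, 39.1% held none. Of all 19163 annotated 3′ UTRs, 52.6% hold TTTTAT and 28.6% hold TTTTAAT, and in the last 100 bases the shares are 13.9% and 5.07%. A match is a run of letters on the sense strand, not a proven binding site, and annotated ends can differ from those used in oocytes.

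The tissue label was checked against marker genes. All 12 oocyte markers were present, and their summed level was 24429 FPKM at 10 μM and 24858 at 20 μM. The 14 markers of cumulus and granulosa cells summed to 23.2 and 26.4 FPKM; 11 of them were below 2 FPKM in both libraries, and Fshr, Amh and Foxl2 were listed at 0 in both. The cumulus genes Ptx3 and Tnfaip6 were past 2-fold upward on the FPKM + 1 scale, Ptx3 from 0 to 1.19 FPKM and Tnfaip6 from 0.169 to 1.57 FPKM, and their part in other results was not tested. The highest of them were Cyp19a1 and Nr5a2, and Nr5a2 is also expressed by oocytes. Of 8 markers of blood cells 6 were listed at 0 in both, and the sums were 1.64 and 1.73 FPKM. The 8 markers of other somatic cells summed to 10.3 and 13.6 FPKM, nearly all of it Pecam1. The files hold no counts; the read totals in the study, which are larger for TubA-10 than for TubA-20, were not used here. More genes were above 0 in TubA-10 (15440) than in TubA-20 (14434), and among genes listed at 0 in only one of them the highest level in the other was 4.70 FPKM.

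The dose step was lopsided. A level lower by over 2-fold at the higher dose was found for 1213 genes (5.52% of all genes), and one more than 2-fold higher for 145 genes (0.660%). Beyond 4-fold the numbers were 107 lower and 11 higher. Among the 7148 genes with a mean of at least 5 FPKM over the libraries, 1032 lay below by more than 2-fold (14.4%) and 94 above by more than 2-fold (1.32%). On the scale as reported, the centre of the distribution moved the other way. The median step of these genes was 0.09, with quartiles of -0.57 and 0.44, and 3884 of them lay above 0 against 3264 below. On that scale many genes thus ranked slightly higher and fewer genes ranked much lower. The size and sign of the centre depend on the scaling. The median shift was -0.18 with Gapdh set equal and -0.08 with equal FPKM sums, against 0.06 with equal upper quartiles. Across all genes the libraries were close, with a Pearson coefficient of 0.979 on log2(FPKM + 1) and a Spearman coefficient of 0.963, both taken across genes, which are not replicates. The median level of the 1213 lower genes was 20.3 FPKM at 10 μM and 6.85 at 20 μM, beside 34.9 in GV and 13.9 in MII. That of the 145 higher genes was 10.2 FPKM at 10 μM and 26.7 at 20 μM, beside 9.73 in GV and 13.4 in MII. Scaling moved calls that lay close to 2-fold. With Gapdh set equal 55 of the 145 higher genes stayed past 2-fold, and every gene called lower did. Among genes named below, the positive steps of Ahsa1, Arpc2, Aurkc, Ccna2, Ddit4, Dpy30, Dync1li2, Eif2ak3, Hsp90aa1, Kif2a, Ndufa4, Nup62, Smn1, Snrpg, Tent2, Ube2d2a, Wtap and Zbed3 fell below 2-fold under that scaling. With the upper quartiles set equal 1085 of the 1213 lower genes stayed past 2-fold, and Cdc25b, Cpeb1, Psmd6 and Rars2 did not.

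**Figure D1:**
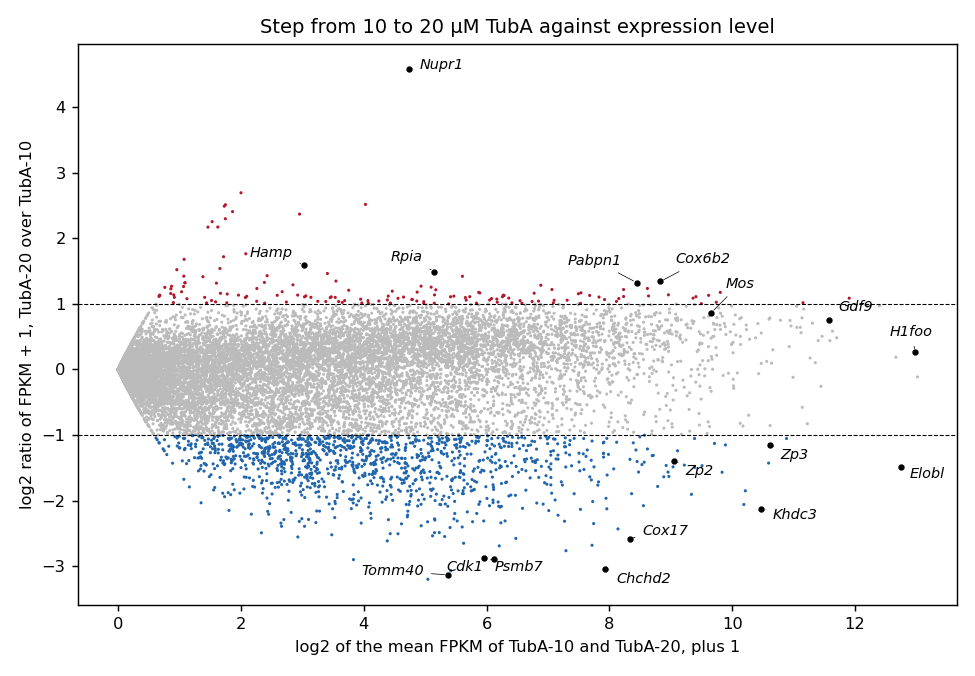
Each point is a gene; the horizontal axis is the log2 of its mean FPKM in TubA-10 and TubA-20 plus 1, and the vertical axis the log2 ratio of FPKM + 1, TubA-20 over TubA-10. Blue points are the 1213 genes lower by over 2-fold at 20 μM, red points the 145 more than 2-fold higher, and dashed lines mark 2-fold; the blue points reach to Chchd2 and Cox17 at high levels, while Nupr1 stands alone at the top with a step of 4.57.

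The 15 largest negative steps lay between -3.13 and -2.54. Tomm40, the channel through which proteins enter mitochondria (chr7:19701313-19715438), had 73.3 FPKM at 10 μM and 7.48 at 20 μM, beside 72.8 in GV and 25.8 in MII. TubA-10 was at the level of GV, MII was lower, and TubA-20 was the lowest of the libraries, with a step of -3.13, a 8.76-fold difference on the FPKM + 1 scale. Znrd1, a subunit of RNA polymerase I, had 75.3 FPKM at 10 μM and 8.10 at 20 μM, beside 213 in GV and 32.6 in MII, a step of -3.07. Chchd2, a protein of the mitochondrial intermembrane space that bears on cytochrome c oxidase, had 433 FPKM at 10 μM and 51.9 at 20 μM, beside 576 in GV and 203 in MII, a step of -3.04. In all these genes the order was the same, with TubA-20 below MII and TubA-10 above it. Cdk1, the catalytic subunit of maturation promoting factor (chr10:69335146-69352938), had 121 FPKM at 10 μM and 15.5 at 20 μM, beside 179 in GV and 44.2 in MII, a step of -2.89 or 7.39-fold. Psmb7, a catalytic subunit of the 20S proteasome, had 108 FPKM at 10 μM and 13.8 at 20 μM, beside 273 in GV and 53.2 in MII (-2.87). Hint1, a purine nucleoside phosphoramidase, had 363 FPKM at 10 μM and 55.8 at 20 μM, beside 528 in GV and 206 in MII (-2.68). Cox17, the copper chaperone of cytochrome c oxidase, was the most abundant of the 15, with 549 FPKM at 10 μM and 91.1 at 20 μM, beside 999 in GV and 266 in MII (-2.58). The remaining 8 had steps between -2.90 and -2.54 and included Plekhh3, the electron carrier Cyb5a, the SNARE protein Use1, Pdcd2, the homeobox gene Gbx2 and Iqcf5. In each of the 15 genes TubA-20 held the lowest level of the 4 libraries.

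The largest positive step stood apart from the rest. Nupr1, a small chromatin-associated protein induced by cellular stress (chr7:126623249-126630861), had 1.14 FPKM at 10 μM and 49.9 at 20 μM, beside 8.88 in GV and 12.8 in MII. TubA-10 lay below both untreated libraries and TubA-20 above both, and the step was 4.57, a 23.8-fold difference on the FPKM + 1 scale. A fold against a level this close to 0 depends on the pseudocount. The next was Hamp, the iron hormone hepcidin, with 3.04 FPKM at 10 μM and 11.2 at 20 μM, beside 1.78 in GV and 2.99 in MII (1.60). Rpia, the ribose 5-phosphate isomerase of the pentose phosphate pathway, had 17.6 FPKM at 10 μM and 51.3 at 20 μM, beside 18.02 in GV and 28.2 in MII (1.49). Pabpn1, the nuclear poly(A)-binding protein, had 197 FPKM at 10 μM and 496 at 20 μM, beside 185 in GV and 319 in MII (1.33), and Pan3, a subunit of the PAN2-PAN3 deadenylase, had 67.6 FPKM at 10 μM and 166 at 20 μM, beside 64.8 in GV and 102 in MII (1.28). Cox6b2, a germ cell form of a cytochrome c oxidase subunit, was the most abundant of the 15, with 256 FPKM at 10 μM and 652 at 20 μM, beside 204 in GV and 312 in MII (1.34). In the last 4 genes TubA-10 lay near GV or between GV and MII, and TubA-20 lay above MII. Gng5, a G protein γ subunit, had 179 FPKM at 10 μM and 419 at 20 μM, beside 103 in GV and 218 in MII (1.22). The remaining 8 were the vesicle tethering factor Trappc6a, the kinase Gsk3a, the glutathione peroxidase Gpx3, the Golgi SNARE Bet1l, the NuRD subunit Gatad2b, Mtdh, Hmg20b and Gtsf2, between 1.42 and 1.21. Apart from Nupr1, the largest difference in this group was 3.03-fold, whereas the smallest of the 15 largest negative steps was 5.80-fold. Predicted genes and pseudogenes were set aside from both groups; they made up 3 of the 15 largest positive and 2 of the 15 largest negative steps.

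The dose step ran along the direction of normal maturation. MII and GV share no library with the dose step, so untreated maturation is a separate measurement. Of the 1832 genes whose level in MII was more than 2-fold below that in GV (8.34% of all genes), 800 were also lower past 2-fold at the dose step and 7 were higher past 2-fold. These 800 make up 43.7% of the genes lower in MII and 66.0% of the genes lower at the dose step. The direction was the same, at any size, for 93.0% of the genes lower in MII, whose median step was -0.90. Their median level was 12.4 FPKM at 10 μM and 5.57 at 20 μM, beside 28.2 in GV and 9.03 in MII. TubA-10 thus lay between GV and MII, close to MII, and TubA-20 lay beyond MII. Of the 669 genes more than 2-fold higher in MII than in GV (3.05% of all genes), 23 were more than 2-fold higher at the dose step, 0 were more than 2-fold lower, and 94.8% had a positive step. Their medians were 31.0 FPKM at 10 μM and 42.8 at 20 μM, beside 16.9 in GV and 39.1 in MII, with a median step of 0.48. The 23 genes make up 3.44% of the genes higher in MII and 15.9% of those higher at the dose step. Over the 7148 genes with a mean of at least 5 FPKM, the 2 log2 ratios had a Pearson coefficient of 0.754 and a Spearman coefficient of 0.755, again a description across genes. All 4 libraries share the kit, the base composition and the lengths of the same transcripts.

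**Figure D2:**
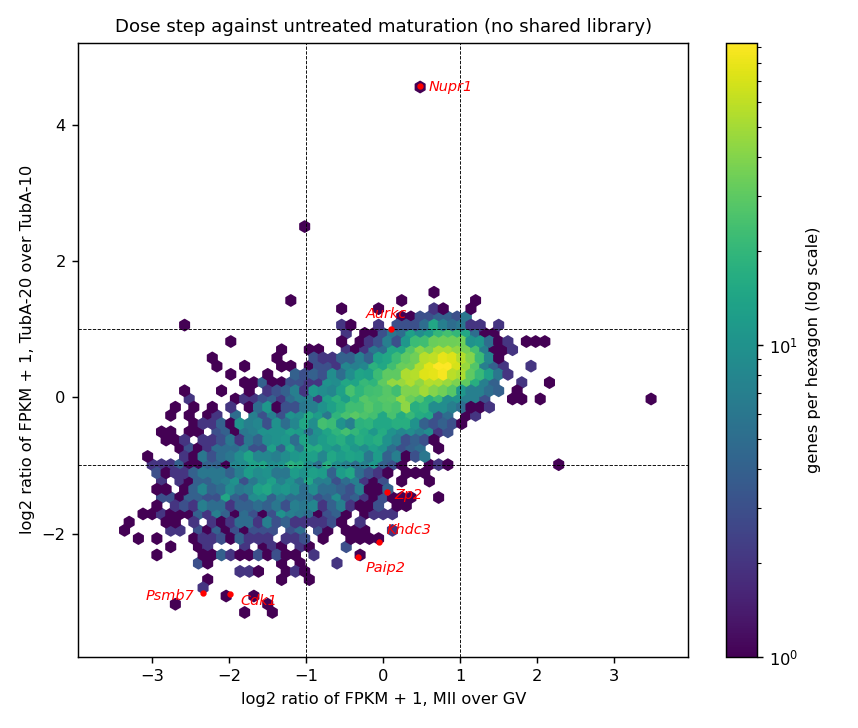
Genes with a mean of at least 5 FPKM (7148) are binned in hexagons coloured by the number of genes; the horizontal axis is the log2 ratio of FPKM + 1 of MII over GV and the vertical axis that of TubA-20 over TubA-10, with dashed lines at 2-fold. The cloud slopes upward (Pearson coefficient 0.754), Khdc3, Zp2 and Paip2 lie below it near 0 on the horizontal axis, and Nupr1 lies above it.

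A smaller set left that line. The genes in this paragraph that are not members of a list were chosen by hand after their values were seen, among those with MII within 0.5 of GV on the log2 scale and steps past 2-fold; they are examples and leave out some larger steps. Among genes with a mean of at least 5 FPKM, 2497 had such a flat course in maturation, and their median step was 0.05. Of these, 126 were lower past 2-fold (5.05%) and 19 higher past 2-fold (0.761%). Both shares were below those of every gene at that level, 14.4% and 1.32%. Paip2, which binds and restrains the poly(A)-binding protein, had 357 FPKM at 10 μM and 69.2 at 20 μM, beside 293 in GV and 234 in MII, a step of -2.35. Khdc3, also called Filia, a member of the subcortical maternal complex (chr9:73101836-73104438), had 2311 FPKM at 10 μM and 531 at 20 μM, beside 1473 in GV and 1422 in MII (-2.12). Cd9, the tetraspanin that eggs need to fuse with sperm, had 299 FPKM at 10 μM and 67.5 at 20 μM, beside 242 in GV and 182 in MII (-2.13). Calm2, a calmodulin gene, had 606 FPKM at 10 μM and 143 at 20 μM, beside 467 in GV and 409 in MII (-2.08), and Sumo3, a ubiquitin-like modifier, had 139 FPKM at 10 μM and 36.1 at 20 μM, beside 84.8 in GV and 89.1 in MII (-1.92). In these 5 genes TubA-10 was the highest of the libraries and TubA-20 the lowest, so the treated libraries lay on opposite sides of both controls. The zona gene Zp2 was level in GV, MII and TubA-10 and lower in TubA-20, with 769.5 FPKM at 10 μM and 293 at 20 μM, beside 753 in GV and 778 in MII (-1.39). Elobl, an oocyte-rich elongin B-like gene, had 10098 FPKM at 10 μM and 3597 at 20 μM, beside 7797 in GV and 8620.1 in MII (-1.49). On the positive side, Aurkc, the Aurora kinase of germ cells, had 479.9 FPKM at 10 μM and 963 at 20 μM, beside 569 in GV and 609 in MII (1.003). Dpy30, a core subunit of histone H3 lysine methyltransferases, had 548 FPKM at 10 μM and 1238 at 20 μM, beside 622 in GV and 719 in MII (1.18), and Smn1, which assembles spliceosomal snRNPs, had 143 FPKM at 10 μM and 309 at 20 μM, beside 121 in GV and 163 in MII (1.10). TubA-20 was the highest of the libraries for all of these.

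The gene lists that follow were read against all genes. In each, the count of members more than 2-fold lower stands against 5.52% of all genes and 14.4% of genes with a mean of at least 5 FPKM. A count of positive steps stands against 34.7% of all genes, many of which are at 0 in both, and 54.3% of genes at that level. Abundant transcripts were lower more often: among the genes with a mean of at least 5 FPKM, the highest quintile by GV level had 26.4% more than 2-fold lower and a median step of -0.22. Short transcripts were lower more often too: in the shortest quintile of protein-coding genes at that level 30.7% were more than 2-fold lower, with a median step of -0.48. How far level or transcript length sets the counts of the lists was not tested.

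Genes for translation were lower at 20 μM in their ribosomal part. Of 85 cytoplasmic ribosomal protein genes 74 had a negative step, 35 were lower past 2-fold and 0 higher past 2-fold. Their median level was 155 FPKM at 10 μM and 79.95 at 20 μM, beside 549.8 in GV and 135 in MII, and their median step was -0.87. The lowest was Rps13, with 403 FPKM at 10 μM and 91.7 at 20 μM, beside 1091 in GV and 222 in MII (-2.12). Rps20 had 9.27 FPKM at 10 μM and 3.93 at 20 μM, beside 52.7 in GV and 7.95 in MII, so that most of its difference from GV was already present in TubA-10. The largest positive step was that of Rps27l, a p53-inducible relative of Rps27, at 761 FPKM at 10 μM and 1355 at 20 μM, beside 650.0 in GV and 789.7 in MII (0.83). The study itself singled out ribosomal genes on these libraries, so their direction is not independent evidence. Of 78 mitochondrial ribosomal protein genes 25 were lower past 2-fold and 0 higher past 2-fold (median step -0.66), from -2.49 for Mrpl55 (from 62.6 to 10.3 FPKM) to 0.63 for Mrps5 (from 72.5 to 113 FPKM). Translation initiation factors were mixed: of 55, 7 were more than 2-fold lower and 1 higher (median -0.10). Eif3g, a subunit of eIF3, went from 188 to 56.1 FPKM (-1.73), and the cap-binding protein gene Eif4e went from 102 to 52.6 FPKM (-0.95), while Eif1, which guards start codon choice, went from 687 to 1344 FPKM (0.97). The member past 2-fold upward was Eif2ak3, the kinase PERK, at 13.3 FPKM at 10 μM and 27.8 at 20 μM (1.01), a call lost under 3 of the 4 scalings. Aminoacyl-tRNA synthetases had 1 of 37 more than 2-fold lower, Rars2 (-1.05), and a median of -0.13, or -0.31 with Gapdh set equal. RNA polymerase subunits had 7 of 29 more than 2-fold lower (median -0.57), among which Znrd1 is described above, against Polr2f at 320.3 FPKM at 10 μM and 583 at 20 μM (0.86). Genes of the nucleolus and of ribosome assembly had a median of -0.13, with 9 of 57 more than 2-fold lower. Emg1, an rRNA methyltransferase, went from 155 to 34.9 FPKM and Fcf1, of the small subunit processome, from 116 to 27.8 FPKM, while nucleolin (Ncl) went from 248 to 419.9 FPKM and the dyskerin gene Dkc1 from 96.5 to 175 FPKM. The acetyltransferase gene Nat10 had 10.9 FPKM at 10 μM and 9.97 at 20 μM, beside 15.9 in GV and 11.8 in MII, a step of -0.12.

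Genes of oxidative phosphorylation were among the lists with the lowest medians. Of 18 genes of the ATP synthase 11 were lower past 2-fold and 0 higher past 2-fold, with a median step of -1.24. The median level was 139.9 FPKM at 10 μM and 72.1 at 20 μM, beside 236 in GV and 112 in MII. Atp5j, a peripheral stalk subunit, had 101 FPKM at 10 μM and 25.2 at 20 μM, beside 233 in GV and 80.7 in MII (-1.97) and Atp5e, the ε subunit, 873 FPKM at 10 μM and 317 at 20 μM, beside 2109.8 in GV and 709 in MII (-1.46). The catalytic subunit Atp5b did not follow, with 258 FPKM at 10 μM and 274 at 20 μM, beside 148 in GV and 214 in MII (0.09). Of 37 nuclear genes of complex I 19 were lower past 2-fold and 1 higher past 2-fold (median -1.05). Ndufb5 had 209.5 FPKM at 10 μM and 46.4 at 20 μM, beside 240.0 in GV and 125 in MII (-2.15). Ndufa4, since assigned to cytochrome c oxidase, was the exception at 562 FPKM at 10 μM and 1145 at 20 μM, beside 394 in GV and 669 in MII (1.03). Of 26 genes of complexes II to IV 9 were more than 2-fold lower and 0 higher (median -0.57). Cox7c had 474 FPKM at 10 μM and 87.2 at 20 μM, beside 528 in GV and 343 in MII (-2.43), whereas Cox8a had 602 FPKM at 10 μM and 1154 at 20 μM, beside 341 in GV and 573 in MII (0.94). Among 32 genes of mitochondrial import and folding 10 were more than 2-fold lower. The median was -0.25, or -0.49 among members with at least 5 FPKM in either treated library. Besides Tomm40, the outer membrane receptor Tomm20 went from 17.3 to 3.19 FPKM and the processing peptidase subunit Pmpcb from 23.04 to 6.76 FPKM. The matrix chaperone Hspa9 went from 83.1 to 97.6 FPKM, and the co-chaperone Tomm34 from 65.4 to 119.9 FPKM. Of 36 genes of glycolysis and the TCA cycle 10 were more than 2-fold lower and 0 higher (median -0.25), with Mdh2 at 65.0 FPKM at 10 μM and 18.1 at 20 μM and Ogdh at 13.5 FPKM at 10 μM and 20.8 at 20 μM. Ldhb, the abundant lactate dehydrogenase subunit of oocytes, was nearly level at 6073 FPKM at 10 μM and 6913 at 20 μM, as was Gapdh at 43.7 FPKM at 10 μM and 50.1 at 20 μM. In the pentose phosphate pathway 0 of 11 genes were more than 2-fold lower and 1 higher, Rpia, while Tkt went from 8.23 to 3.97 FPKM and G6pdx from 60.3 to 39.3 FPKM. Of the 13 protein-coding genes of the mitochondrial genome 8 were listed at 0 in both treated libraries. The other 5 had positive steps, 3 of them past 2-fold. The largest step of the list was that of mt-Co3, from 0.0697 to 5.92 FPKM (2.69), and mt-Nd2 went from 1.96 to 6.44 FPKM (1.33). These transcripts are abundant in any oocyte, so their zeros are not read as absence.

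**Figure D3:**
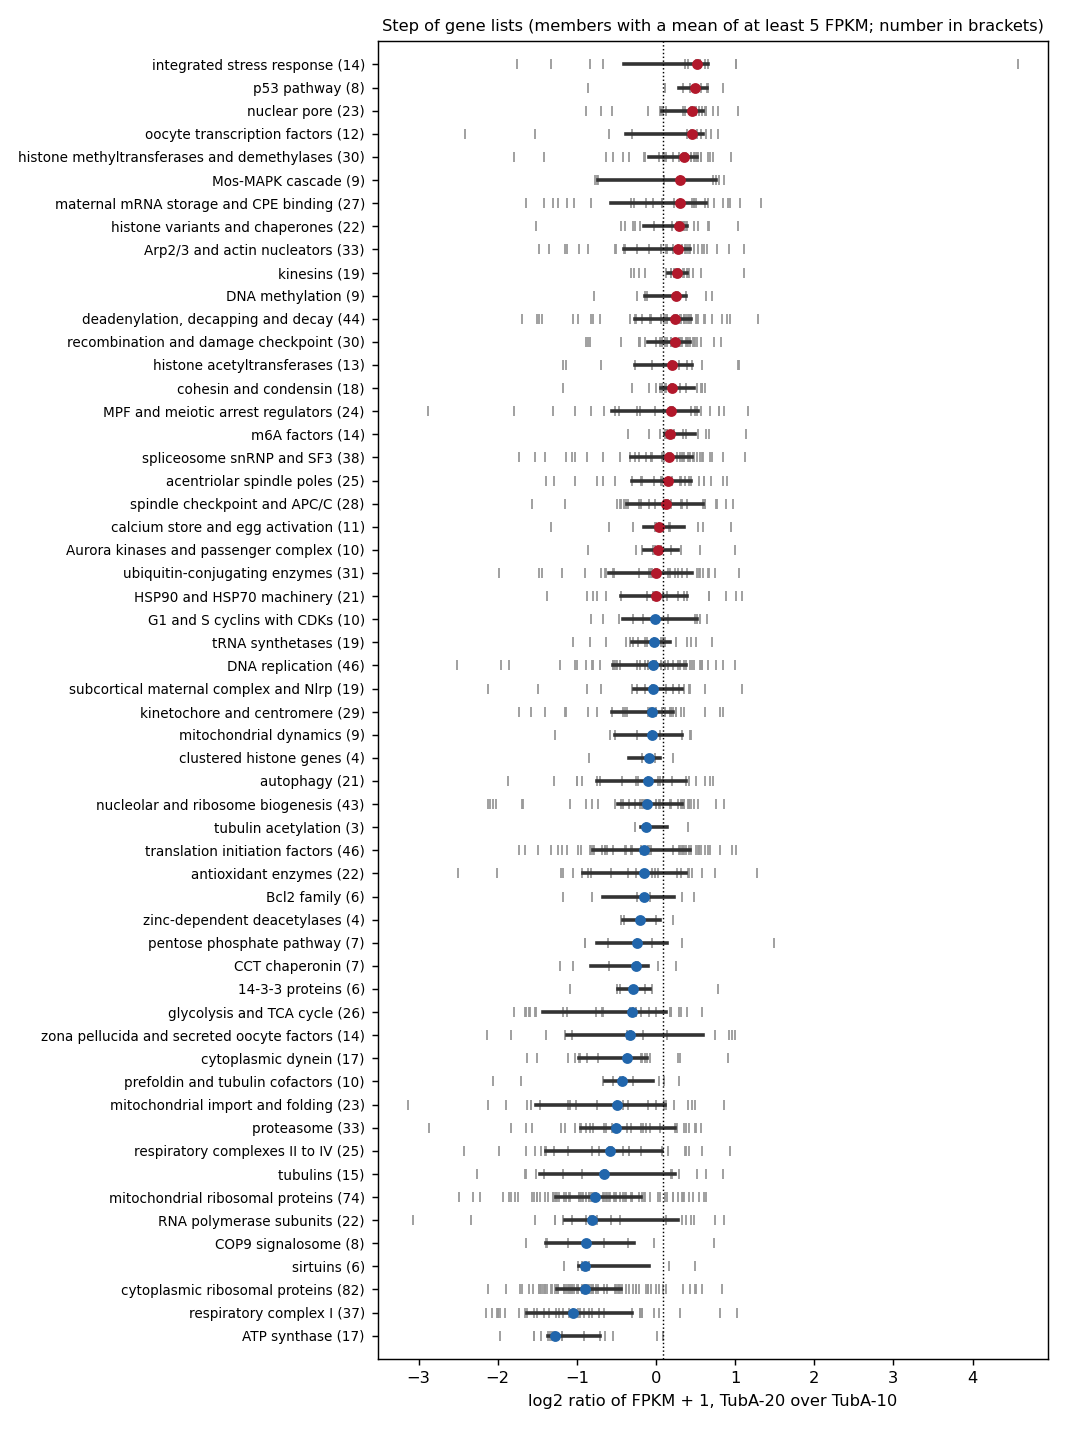
Each row is a gene list, with the number of its members at a mean of at least 5 FPKM in brackets; ticks are members, the bar spans the quartiles and the dot is the median of the log2 ratio of FPKM + 1, TubA-20 over TubA-10, in blue below 0 and red above. The dotted line is the median of all 7148 genes at that level (0.09); the ATP synthase, complex I and the ribosome lie at the low end, and the single tick far to the right is Nupr1.

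Lists of protein turnover and folding had members on both sides. Of 39 proteasome genes 7 were lower past 2-fold and 0 higher past 2-fold, with a median step of -0.37. Of these 7, 4 encode subunits of the β ring: Psmb7, Psmb4 (from 107 to 29.4 FPKM), Psmb1 (from 174 to 54.8 FPKM) and Psmb5 (from 46.4 to 14.9 FPKM). Another of the 7 was the regulatory subunit Psmd6 (-1.03), whereas the regulatory subunit Psmd1 went from 71.2 to 106 FPKM (0.57). Whether the particles of the proteasome differ was not tested. Of 36 ubiquitin-conjugating enzymes 4 were more than 2-fold lower and 1 higher (median 0.00). Ube2a, a partner of RAD18, had 220.3 FPKM at 10 μM and 54.7 at 20 μM, beside 210.1 in GV and 89.6 in MII (-1.99), where TubA-10 was as high as GV, while Ube2d2a had 88.0 FPKM at 10 μM and 184 at 20 μM, beside 83.1 in GV and 104 in MII (1.05). Ube2c and Ube2s, which serve the anaphase promoting complex, had 355 FPKM at 10 μM and 394 at 20 μM and 685 FPKM at 10 μM and 1095 at 20 μM. In the COP9 signalosome, a complex that removes NEDD8 from cullins, 4 of 9 members were more than 2-fold lower: Cops7a (from 67.0 to 20.8 FPKM), Cops6 (from 42.8 to 15.7 FPKM), Cops4 (from 105 to 39.9 FPKM) and Cops5, the deneddylase (from 53.5 to 24.1 FPKM). Cops9, the smallest member, went from 498 to 828 FPKM. The study drew attention to this complex on the same libraries, and it also names Cops3 and Cops4 among genes measured by RT-qPCR on separate oocytes. Of 7 genes of the chaperonin CCT 2 were more than 2-fold lower and 2 had a positive step (median -0.25), from Cct3 at 156 FPKM at 10 μM and 66.7 at 20 μM to Cct8 at 126 FPKM at 10 μM and 150.2 at 20 μM. Of 11 genes of prefoldin and the tubulin cofactors 2 were more than 2-fold lower and 3 had a positive step (median -0.45), from Pfdn6 at 93.5 FPKM at 10 μM and 21.7 at 20 μM to Pfdn2 at 106 FPKM at 10 μM and 130.1 at 20 μM. The HSP90 and HSP70 list was divided (median 0.00, 2 of 26 past 2-fold each way). Hsp90aa1 had 1504 FPKM at 10 μM and 3046 at 20 μM, beside 1069 in GV and 1643 in MII (1.02) and its co-chaperone Ahsa1 181 FPKM at 10 μM and 385 at 20 μM, beside 147 in GV and 264 in MII (1.08), while Dnajb1 had 43.6 FPKM at 10 μM and 16.2 at 20 μM, beside 74.7 in GV and 27.5 in MII (-1.38).

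Regulators of the meiotic divisions had steps in both directions. In their lists the share lower past 2-fold was near or below the 14.4% of genes with a mean of at least 5 FPKM. Of 25 genes that set the activity of maturation promoting factor 4 were lower past 2-fold and 1 higher past 2-fold, with a median step of 0.18, or 0.0083 with Gapdh set equal. The 4 were Cdk1, the activating phosphatases Cdc25c (from 8.12 to 1.62 FPKM) and Cdc25b, and the phosphatase inhibitor Arpp19 (from 203 to 81.5 FPKM). Cdc25b had 14.5 FPKM at 10 μM and 6.62 at 20 μM, beside 11.2 in GV and 17.7 in MII (-1.03); it was higher in MII than in GV, and TubA-20 was the lowest of the libraries. Ccna2, a cyclin of the meiotic divisions, was the member past 2-fold upward, with 66.5 FPKM at 10 μM and 150.2 at 20 μM, beside 47.7 in GV and 95.4 in MII (1.16, or 0.97 with Gapdh set equal). Ccnb1, the cyclin partner of Cdk1, had 626 FPKM at 10 μM and 927 at 20 μM, beside 394 in GV and 749 in MII (0.57). Cdk1 and Ccnb1 thus lay at opposite ends in TubA-20, with the kinase transcript lowest and the cyclin transcript highest of the libraries. Mos, the kinase that starts the MAPK cascade of metaphase II arrest, had 571 FPKM at 10 μM and 1041 at 20 μM, beside 635 in GV and 726 in MII (0.86). Downstream, Map2k1 went from 131 to 215 FPKM (0.72) while Mapk3 went from 209.8 to 122.97 FPKM (-0.77). The securin gene Pttg1 had 3645 FPKM at 10 μM and 7145 at 20 μM, beside 2606 in GV and 5029 in MII (0.97) and Cdc20, an activator of the anaphase promoting complex, 79.8 FPKM at 10 μM and 137 at 20 μM, beside 78.9 in GV and 122 in MII (0.77), whereas its other activator Fzr1 had 70.2 FPKM at 10 μM and 23.1 at 20 μM, beside 63.6 in GV and 50.3 in MII (-1.56). Of 28 genes of the spindle checkpoint and that complex 2 were more than 2-fold lower and 0 higher. Cdk2 had 5.21 FPKM at 10 μM and 0.680 at 20 μM, beside 5.70 in GV and 2.98 in MII (-1.89) and Cdk4 3.79 FPKM at 10 μM and 1.71 at 20 μM, beside 14.8 in GV and 3.35 in MII (-0.82). The study chose the kinases Cdk1, Cdk2 and Cdk4 and Cdc25b on these libraries. By immunofluorescence it reported that CDK1 and Cyclin B protein rose with time in treated oocytes, although Cdk1 mRNA was lower. The transcript levels here therefore do not stand for protein.

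**Figure D4:**
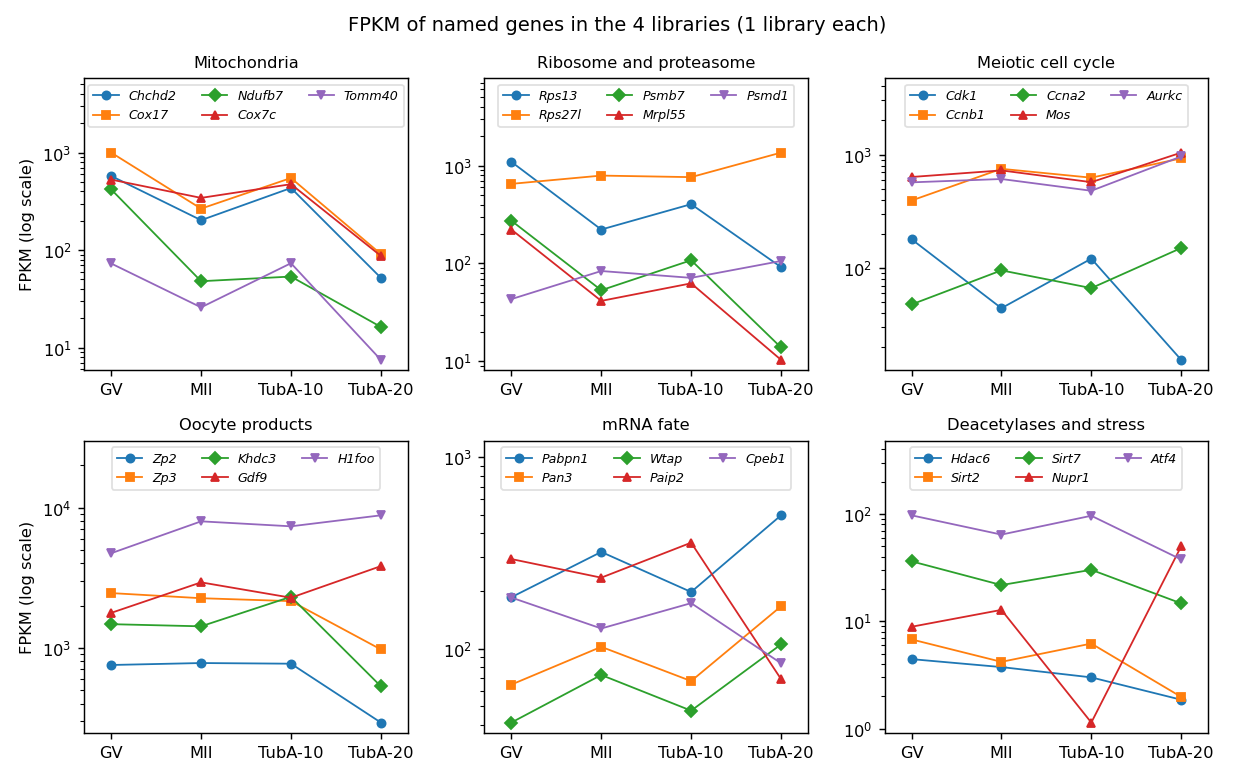
Levels of 30 genes in the untreated (GV, MII) and treated libraries (1 library each, FPKM on a log scale; lines join the points of a gene and are no time course), in 6 panels by role. Tomm40 and Chchd2 are lowest in TubA-20, at 7.48 and 51.9 FPKM, while Mos, Aurkc and Gdf9 are highest there, and Nupr1 is lowest in TubA-10 and highest in TubA-20.

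Spindle and cortex lists held members with negative and members with positive steps. Of 19 tubulin genes 6 were lower past 2-fold and 0 higher past 2-fold (median step -0.63): Tubb2b (from 18.05 to 2.98 FPKM), Tubb5 (from 38.0 to 11.4 FPKM), Tubb6 (from 199 to 63.0 FPKM), Tuba4a (from 40.1 to 13.4 FPKM), Tuba3a (from 97.9 to 36.1 FPKM) and Tubb4b (from 215 to 94.6 FPKM). Tubulin genes are similar in sequence, and reads can be split among them. Tubg2, a γ-tubulin, went from 74.5 to 134 FPKM (0.84). Of 38 kinesins 0 were more than 2-fold lower, and 1, Kif2a, a microtubule depolymerase, was higher with 26.9 FPKM at 10 μM and 59.5 at 20 μM, beside 25.2 in GV and 44.6 in MII (1.12). Dynein and dynactin genes had 4 of 25 more than 2-fold lower and 1, Dync1li2 (from 1.67 to 4.72 FPKM), higher (median -0.25), with Dctn6 at 38.9 FPKM at 10 μM and 11.9 at 20 μM and Lis1 (Pafah1b1) at 48.2 FPKM at 10 μM and 91.7 at 20 μM. The Aurora kinase genes differed: Aurka had 101 FPKM at 10 μM and 83.9 at 20 μM, beside 123.2 in GV and 71.5 in MII (-0.26), against the positive step of Aurkc, and Birc5, survivin, had 2020.0 FPKM at 10 μM and 1116 at 20 μM, beside 1331 in GV and 1537 in MII (-0.86). Cohesin and condensin genes had 18 of 22 positive steps, 1 more than 2-fold lower (Ncaph2, -1.17) and a median of 0.21 (0.025 with Gapdh set equal). Of 42 genes of actin and its nucleators 4 were more than 2-fold lower and 1 higher (median 0.14, which turned to -0.01 with Gapdh set equal). The formin gene Fmn2, which builds the actin mesh that moves the spindle, had 58.5 FPKM at 10 μM and 100.2 at 20 μM, beside 34.1 in GV and 72.8 in MII (0.77), and Actb 67.5 FPKM at 10 μM and 129 at 20 μM, beside 39.1 in GV and 81.1 in MII (0.92). The gene past 2-fold upward was Arpc2, of the Arp2/3 complex, with 189 FPKM at 10 μM and 409.5 at 20 μM, beside 145 in GV and 222 in MII (1.11, or 0.92 with Gapdh set equal). Of the same complex, Arpc1a went from 22.7 to 8.27 FPKM (-1.35), and Actr2 and Actr3 had 41.4 FPKM at 10 μM and 52.3 at 20 μM and 77.1 FPKM at 10 μM and 80.5 at 20 μM. The study reported lower Aurora C, Arp2 and Arp3 transcripts in treated oocytes than in the control, also by RT-qPCR on separate oocytes. Here the treated libraries lay between GV and MII for Actr2 and Actr3, and Aurkc was lowest in TubA-10 and highest in TubA-20.

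Hdac6, the target of the compound, was expressed at a low level. It had 2.998 FPKM at 10 μM and 1.86 at 20 μM, beside 4.44 in GV and 3.74 in MII; the order fell from GV to TubA-20, with a step of -0.49. None of the 11 zinc-dependent deacetylase genes, Hdac1 to Hdac11, was past 2-fold in either direction. Their median step was 0.00, or -0.20 among the 4 with a mean of at least 5 FPKM. Hdac2, the most abundant, had 44.9 FPKM at 10 μM and 52.3 at 20 μM, beside 54.0 in GV and 45.5 in MII (0.22), Hdac8 9.66 FPKM at 10 μM and 7.07 at 20 μM, beside 9.67 in GV and 9.97 in MII (-0.40) and Hdac1 5.28 FPKM at 10 μM and 5.28 at 20 μM, beside 4.24 in GV and 5.92 in MII (0.00). Among the 7 sirtuins, the NAD-dependent deacetylases, 5 had a negative step and 2 were more than 2-fold lower, with a median of -0.94. Sirt2, the other α-tubulin deacetylase, had 6.19 FPKM at 10 μM and 1.97 at 20 μM, beside 6.77 in GV and 4.18 in MII (-1.27). Sirt5, of mitochondria, had 7.89 FPKM at 10 μM and 2.98 at 20 μM, beside 13.9 in GV and 4.96 in MII (-1.16), and the nucleolar Sirt7 30.1 FPKM at 10 μM and 14.7 at 20 μM, beside 36.2 in GV and 21.7 in MII (-0.99). Sirt6 and Sirt3 had steps of -0.94 and -0.85, while Sirt1 and Sirt4 lay above 0 at 0.17 and 0.50. The study chose the sirtuins on these libraries. Atat1, the α-tubulin acetyltransferase, went from 26.6 to 35.5 FPKM (0.40). Of 14 histone acetyltransferases and readers 2 were past 2-fold each way, with Kat8 (from 107 to 47.1 FPKM) among those below. Histone methyltransferases and demethylases had 34 of 49 positive steps and 2 members more than 2-fold lower (median 0.21, or 0.11 with Gapdh set equal), from Suv39h1 (from 8.46 to 1.73 FPKM) to Kdm6b (from 59.98 to 116 FPKM). Dnmt1, Dppa3 and the linker histone H1foo were near level at 471 FPKM at 10 μM and 399 at 20 μM, 8610.4 FPKM at 10 μM and 7959.7 at 20 μM and 7352 FPKM at 10 μM and 8806 at 20 μM.

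Among oocyte products Gdf9 and Bmp15 had positive steps and Zp1, Zp2 and Zp3 negative ones. The Bmp15 step was smaller in size than the median shift of -0.18 with Gapdh set equal. The secreted growth factor gene Gdf9 had 2275 FPKM at 10 μM and 3822 at 20 μM, beside 1774 in GV and 2928 in MII (0.75), and its partner Bmp15 744 FPKM at 10 μM and 816 at 20 μM, beside 459.9 in GV and 972 in MII (0.13). Of the zona pellucida genes, Zp3 had 2151 FPKM at 10 μM and 973 at 20 μM, beside 2454 in GV and 2256 in MII (-1.14) and was lower past 2-fold, as Zp2 was, while Zp1 went from 553 to 429 FPKM (-0.37). Astl, ovastacin, the cortical granule protease that cleaves ZP2, went from 119 to 237 FPKM (0.99), and Oosp1 from 3198 to 6213 FPKM (0.96). Of 17 such genes 5 were more than 2-fold lower and 0 higher, and 7 had a positive and 10 a negative step. Their median was -0.16, or -0.32 among members with a mean of at least 5 FPKM. Of 19 genes of the subcortical maternal complex and the Nlrp family, Khdc3 and Padi6 were lower past 2-fold and Zbed3 was higher past 2-fold. Padi6, needed for the cytoplasmic lattices, had 987 FPKM at 10 μM and 350.3 at 20 μM, beside 833 in GV and 776 in MII (-1.49), and Zbed3 had 2453 FPKM at 10 μM and 5213 at 20 μM, beside 1811 in GV and 2792 in MII (1.09, or 0.89 with Gapdh set equal). Nlrp5 (Mater) and Ooep stayed near 0, at -0.14 and -0.24. Among 16 oocyte transcription factors, Figla, which drives the zona genes during growth, had 70.2 FPKM at 10 μM and 12.4 at 20 μM, beside 90.5 in GV and 41.9 in MII (-2.41) and Lhx8 105 FPKM at 10 μM and 35.6 at 20 μM, beside 96.5 in GV and 65.4 in MII (-1.53), while Obox5 had 544 FPKM at 10 μM and 941 at 20 μM, beside 524 in GV and 694 in MII (0.79). The study reported Obox5 as reduced in treated oocytes, whereas here TubA-10 lay between GV and MII and TubA-20 was the highest. The median of the transcription factor list was 0.42, or 0.23 with Gapdh set equal.

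Factors that handle maternal mRNA were on both sides. Of 34 genes of mRNA storage and CPE binding 6 were more than 2-fold lower and 2 higher, and the median of 0.04 was -0.04 with Gapdh set equal and 0.30 among members with at least 5 FPKM in either treated library. Cpeb1, which binds the CPE, had 173 FPKM at 10 μM and 83.8 at 20 μM, beside 185 in GV and 127 in MII (-1.03). Pabpc1l, the embryonic poly(A)-binding protein of oocytes, had 69.9 FPKM at 10 μM and 21.8 at 20 μM, beside 69.1 in GV and 51.9 in MII (-1.64), and the cleavage and polyadenylation factors Cpsf3 and Cpsf4 went from 25.8 to 9.83 FPKM and from 8.54 to 3.04 FPKM. The 2 genes past 2-fold upward were Pabpn1 and Tent2, the cytoplasmic poly(A) polymerase GLD2, at 41.9 FPKM at 10 μM and 88.4 at 20 μM, beside 33.2 in GV and 53.1 in MII (1.06). Papola, the canonical poly(A) polymerase, went from 152 to 287 FPKM (0.91). Zar1 and Ybx2 were near level at 2115 FPKM at 10 μM and 1947 at 20 μM and 77.7 FPKM at 10 μM and 75.4 at 20 μM. Of 54 genes of deadenylation, decapping and decay 37 had a positive step, 5 were more than 2-fold lower and 1, Pan3, higher (median 0.25, or 0.068 with Gapdh set equal). Cnot6l and Cnot7, deadenylases of the CCR4-NOT complex, went from 181 to 296 FPKM and from 206 to 279 FPKM, and Btg4, the adaptor that brings the complex to maternal mRNA, from 3031 to 2536 FPKM. Of 15 m6A factors 13 had a positive step (median 0.14, or 0.036 with Gapdh set equal). Wtap, a subunit of the methyltransferase, was more than 2-fold higher with 47.4 FPKM at 10 μM and 105 at 20 μM, beside 41.1 in GV and 72.8 in MII (1.13, or 0.94 with Gapdh set equal). Of 30 nuclear pore genes 22 had a positive step, 0 were more than 2-fold lower and 1, Nup62, higher (median 0.26, or 0.15 with Gapdh set equal). Nup62 went from 69.1 to 143 FPKM (1.04), a call lost under 3 of the 4 scalings.

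Stress lists held steps in both directions. In the integrated stress response list 15 genes had a positive and 9 a negative step. Its median was 0.29, or 0.52 among the 14 members with a mean of at least 5 FPKM and 0.18 with Gapdh set equal. In the p53 list 12 were positive and 8 negative. The median there was 0.11, or 0.50 among the 8 members at that level and 0.0082 with Gapdh set equal. Of 24 genes of the integrated stress response 3 were more than 2-fold higher, Nupr1, Eif2ak3 and Ddit4 (from 19.9 to 41.0 FPKM), and 2 were more than 2-fold lower. The lower genes were Atf4, the main transcription factor of that response, with 96.1 FPKM at 10 μM and 37.6 at 20 μM, beside 97.0 in GV and 64.1 in MII (-1.33), and the serine synthesis gene Phgdh (from 9.37 to 2.08 FPKM). Ddit3 (CHOP) had 25.2 FPKM at 10 μM and 13.7 at 20 μM, beside 122.6 in GV and 22.7 in MII (-0.83). None of 21 genes of the p53 pathway was past 2-fold; Trp53 itself had 37.7 FPKM at 10 μM and 68.5 at 20 μM, beside 29.0 in GV and 49.0 in MII (0.84) and Mdm2 55.3 FPKM at 10 μM and 82.4 at 20 μM, beside 36.0 in GV and 68.1 in MII (0.57). Of 36 antioxidant genes 5 were more than 2-fold lower and 1 higher. Prdx3, the peroxiredoxin of mitochondria, had 35.6 FPKM at 10 μM and 5.46 at 20 μM, beside 29.7 in GV and 12.9 in MII (-2.50), while the cytosolic Prdx1 had 1313 FPKM at 10 μM and 2210.0 at 20 μM, beside 983 in GV and 1277 in MII (0.75). Of 18 genes of the Bcl2 family 2 were more than 2-fold lower, and the abundant Bcl2l10 went from 2776 to 3881 FPKM (0.48).

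The remaining lists covered genome upkeep and other functions. Of 48 DNA replication genes 5 were lower past 2-fold and 0 higher (median -0.07), with the flap endonuclease Fen1 at 17.95 FPKM at 10 μM and 2.30 at 20 μM, beside 18.3 in GV and 7.31 in MII (-2.52) and Rpa2, of the single-strand binding protein RPA, from 23.7 to 5.34 FPKM. The clamp loader subunit Rfc1 went from 95.7 to 192 FPKM and the clamp itself, Pcna, from 86.1 to 129 FPKM. Of 46 genes of recombination and the damage checkpoint 1 was lower past 2-fold (median 0.14, or 0.0092 with Gapdh set equal), and the checkpoint kinase gene Chek1 went from 254 to 377 FPKM. Spliceosome genes had 6 of 43 lower and 1 higher past 2-fold, with a median of 0.10 that turned to -0.10 with Gapdh set equal; Snrnp25 went from 37.8 to 10.7 FPKM and Snrpg from 127 to 279.8 FPKM. Of 33 kinetochore genes 5 were lower past 2-fold, among them Cenpt (from 7.65 to 1.59 FPKM), while the centromeric histone gene Cenpa went from 82.6 to 127 FPKM. Of 33 autophagy genes 3 were lower past 2-fold, the lowest being Atg4b (from 11.3 to 2.36 FPKM), and Becn1 went from 32.4 to 42.4 FPKM. Among 17 genes of calcium handling the store-operated channel Orai1 was lower past 2-fold (from 17.6 to 6.42 FPKM), and the calcium release channels Itpr1 and Itpr2 went from 19.0 to 29.1 FPKM and from 29.9 to 58.4 FPKM. Of the 6 Ywha genes, which encode phosphoprotein-binding adaptors, Ywhaq was lower past 2-fold (from 39.6 to 18.1 FPKM), and the median step of the 6 was -0.29.

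The step differed with features of the transcripts. These counts cover the 7134 protein-coding genes with a mean of at least 5 FPKM and use 1 principal transcript for each gene. From the shortest to the longest quintile of transcripts the median step went through -0.48, -0.14, 0.06, 0.22 and 0.31, and the share lower past 2-fold was 30.7% in the shortest and 3.51% in the longest. By coding length it went from -0.31 in the shortest quintile to 0.28 in the longest. By GC content of the transcript it went from 0.25 in the lowest quintile to -0.33 in the highest. Untreated maturation had the same gradient: the median log2 ratio of MII over GV was -0.66 in the shortest quintile of transcripts and 0.66 in the longest. Length, GC content, level and 3′ UTR content are linked to each other, and their separate parts were not tested.

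The number of CPE matches in the 3′ UTR ranked the genes as well. Of 7067 genes with an annotated 3′ UTR, 2766 held neither TTTTAT nor TTTTAAT, and their median step was -0.36 with 26.1% more than 2-fold lower. With 1, 2 and 3 matches the medians were 0.11, 0.24 and 0.30, and the 1365 genes with 4 or more had a median of 0.34 with 3.004% more than 2-fold lower. The share more than 2-fold higher showed no such order, with 1.08% without a match and 1.61%, 0.653%, 1.36% and 1.76% with 1, 2, 3 and at least 4. Untreated maturation had a gradient over the same classes too, with a median log2 ratio of MII over GV of -0.46 without a match and 0.14, 0.41, 0.47 and 0.69 with 1, 2, 3 and at least 4. Longer 3′ UTRs hold more matches, so the genes were split into 4 classes of equal size by 3′ UTR length. In the shortest length class (up to 337 bases) the median was -0.51 for 1364 genes without a match and 0.23 for 408 with one. In the 3 longer classes of equal size the pairs were -0.32 and 0.19, -0.13 and 0.27, and -0.03 and 0.29. The difference was in the same direction in each class and was largest where the 3′ UTR is short. It was not particular to the order of letters in the CPE. Over genes with a 3′ UTR of usable length, those with TTTTAT exceeded those without by 0.50 in median step, and for the other arrangements of the same letters the difference was 0.57 for TTTTTA, which can overlap TTTTAT, 0.48 for TATTTT, 0.45 for ATTTTT, 0.39 for TTTATT and 0.38 for TTATTT. In the last 100 bases the difference was 0.30 for TTTTAT, 0.30 for TTTTTA and between 0.18 and 0.22 for the rest. For the poly(A) signal AATAAA it was 0.18 there, and for ATTAAA 0.04.

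**Figure D5:**
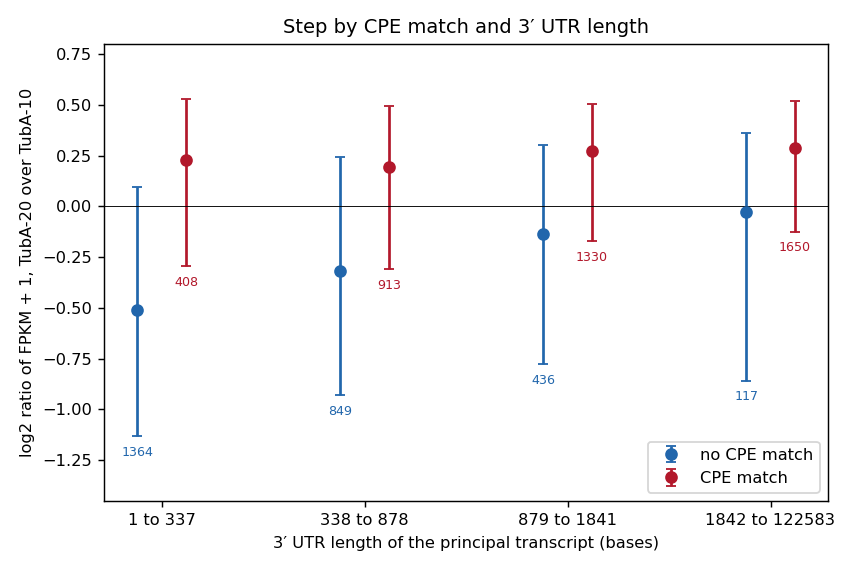
Median (dot) and quartiles (bars) of the log2 ratio of FPKM + 1, TubA-20 over TubA-10, for protein-coding genes in 4 equal classes of 3′ UTR length, without (blue) and with (red) a CPE match in the 3′ UTR; the numbers are genes. The medians without a match go from -0.51 to -0.03 with increasing length, and those with a match stay between 0.19 and 0.29.

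Single genes did not all follow these gradients. Aurkc, with a 3′ UTR of 146 bases and 1 match, and Mos, with 126 bases and 0 matches, were both higher in TubA-20. Cdk1 had a long 3′ UTR with 2 matches and was among the 15 lowest. Cpeb1, with 4 matches, was more than 2-fold lower, while Pabpn1, with 0 matches in 113 bases, was among the 15 highest.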

How the data were processed

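Poly(A)-selected RNA of 4 samples of mouse oocytes, pools of 100 by the study's methods, was sequenced. The authors computed FPKM with Cufflinks in its strand-specific mode; the submitters' processing notes name mm10, STAR 2.5.0 and Cuffdiff 2.2.1. The deposited table gives FPKM for 21959 Ensembl entries and no counts, and no interval was computed. The study's gene model is named as that of UCSC, although the identifiers are Ensembl. Cufflinks FPKM of very short transcripts are less certain. GEO's labels and the study's methods name different RNA extraction kits.

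Symbols were matched for 21794 entries, entries of a symbol were added up (21957 genes), and the step was log2 of the ratio of FPKM + 1. With 1 library a side no test was run, and 2-fold marks a call. Principal transcripts, 3′ UTRs and sites were read from GENCODE release 21 on GRCm38; coding length stands for protein length. Named genes were the 15 largest positive and negative steps among 5806 genes with at least 10 FPKM in either treated library, the extreme members (at least 5 FPKM) of each of 57 gene lists, and key members of these; other genes were chosen after their values were seen. Some genes that this rule names are not reported here. The comparison, its lists, markers and rules were chosen with earlier results of these data known. The code was tested on simulated data. Python 3.11.15, numpy 2.4.6, pandas 2.3.3 and matplotlib 3.10.9 were used. Alternatives were 2 smaller pseudocounts, filters on low values, 4 scalings, other fold limits and another sum of entries.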

Additional observations from a re-analysis of the deposited data

How the results depend on the processing

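With 1 library for each condition, no result has a replicate check, and no replicate could be left out or paired. The counts of genes depended on the pseudocount and the fold limit. Genes higher in TubA-20 numbered 657 with a pseudocount of 0.1 and 1271 with 0.01, against 145 with 1, and genes lower in TubA-20 numbered 2484 and 3820 against 1213. A 3-fold limit left 15 higher and 340 lower, and a 1.5-fold limit gave 1373 and 2472. Setting the upper quartiles of the libraries equal gave 220 higher genes and setting Gapdh equal gave 55, since the latter shifted the median step by -0.18; steps of named genes are shifted by about the same amount under it. The other scalings shifted it by -0.06, -0.08 and 0.06. The median step of genes without a CPE match was -0.012 when the last 100 bases of the 3′ UTR alone were searched, against -0.36 over the whole 3′ UTR. Of the 145 higher genes 106 stayed past 2-fold with the median step set to 0 and 97 with equal FPKM sums. Of the list medians 513 values under other settings stayed within 0.25 of the value given and 4 moved; of the named genes 2317 stayed and 43 moved. Medians close to 0 changed sign with the scaling or filter for the actin, Aurora, spindle pole, HSP90 and HSP70, mRNA storage, spliceosome, spindle checkpoint, calcium and subcortical complex lists, among others.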
